A study of Hordeum vulgare with 6 samples.

Results

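HvMADS1 is a SEPALLATA-type MADS-box transcription factor of barley, and the genes described here are the lipid and cuticle genes among its putative direct targets. They were taken from the 605 genes that the study lists as both differentially expressed in *mads1* and bound by HvMADS1. Binding was mapped by CUT&Tag, which sequences DNA cut beside a tagged protein, in plants carrying an HvMADS1-eGFP fusion. A gene was kept if its annotation there named a lipase, a GDSL protein, a lipid, acyl or fatty acid function, a wax function, an AMP-dependent synthetase or a desaturase. Kinases, transporters, transcription factors and genes of the study's hormone, cell cycle and flower list were dropped, which removed acyl-CoA oxidase 2 from the 36 genes matched and left 35. The deposited table lists 26933 genes. RNA-seq libraries came from 3 *mads1* knockout samples and 3 wild type (WT) samples of barley cv. Golden Promise grown under normal conditions, all at Waddington stage W7.5, when the floral organs are forming. The methods describe the tissue as lemma and awn, pooled from several plants per sample, and the sample labels as spikelet. The *mads1* plants were made with CRISPR-Cas9, but which knockout line was sequenced is not given in the sources used here, nor is the targeted gene analysed here.

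The outer face of a lemma or awn is covered by a cuticle, which limits water loss. Its matrix is cutin, a polyester of hydroxylated fatty acids, and waxes made from very-long-chain fatty acids fill and coat it. The acyl chains are built in the plastid, lengthened and modified at the endoplasmic reticulum and exported through the epidermal wall, where secreted esterases and lipid transfer proteins act on or carry them. Several of the families named below also work outside the cuticle, in membranes, pollen walls or phenolic metabolism, so the annotation of a member gives its family and not its substrate. No sequence is printed, because the names in the reference table used here could not be joined to the barley identifiers of the deposited table.

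Levels are given in FPKM (fragments scaled to gene length and library size), which allows different genes to be compared, and the number of reads behind them is unknown. Library totals were 939663 to 966119 FPKM in *mads1* and 993575 to 994495 FPKM in WT. Across the 17996 genes that reached 1 FPKM in 3 or more libraries, Pearson's correlation of log2(FPKM + 1) was 0.982 to 0.994 within a genotype and 0.884 to 0.941 between genotypes. Fold changes are differences of mean log2(FPKM + 1), *mads1* minus WT, which makes the change of weakly expressed genes look smaller than it is. The lemma and awn regulators *HvDL* and *HvSHI* were present in every library, at 49.8 FPKM or more and 14.3 FPKM or more. Both are bound genes and were lower in *mads1*. *HvDL* averaged 56.5 FPKM in *mads1* against 91.1 FPKM in WT, and *HvSHI* 17.1 FPKM against 60.7 FPKM. Their presence therefore does not show that the tissue of the 2 genotypes was matched.

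The 35 members were mostly lower in *mads1*. Of the 31 with enough FPKM to be tested, 30 were lower and 1 was higher past the study's limits (limma, adjusted p below 0.05 and at least 1.5-fold). Of all genes tested, 14.5% were lower, 6.6% higher and 21.1% either. HORVU.MOREX.r3.1HG0018050, HORVU.MOREX.r3.5HG0499310, HORVU.MOREX.r3.2HG0113980 and HORVU.MOREX.r3.7HG0714350 did not reach 1 FPKM in any *mads1* library. They passed the filter on low values only through WT. Without that filter, 33 members were lower and 2 higher. The study put the members on its list because they differed between the same libraries, so the counts and fold changes of members describe them and carry no test. The median log2 fold change was -1.79 over the 31 members, -1.11 over the 510 other bound genes tested and 0.05 over all genes tested. Of those 510 genes, 420 were lower and 63 higher, so lowering was common to the bound list. The *mads1* mean was under 25% of the WT mean for 17 of the 30 lower members and under 10% for 5. The median percentage of WT was 21.4% over the tested members and 40.6% over the other bound genes tested. In all 35 members the *mads1* and WT values did not overlap, 33 with *mads1* below, while 21.9% of all listed genes lay below in this way and 21.8% above. Among tested genes 26.5% lay below and 29.4% above. The other bound genes shared this trait, with no overlap in 568 of 570, and *mads1* below in 489. For 22 of the 30 lower members the lowest WT library was at least 2 times the highest *mads1* library. This count and those under 25% and 10% of WT were not made for genes outside the members, so they only describe them. The members were spread over all 7 chromosomes, with 9 on 3H and 8 on 5H.

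**Figure D1:**
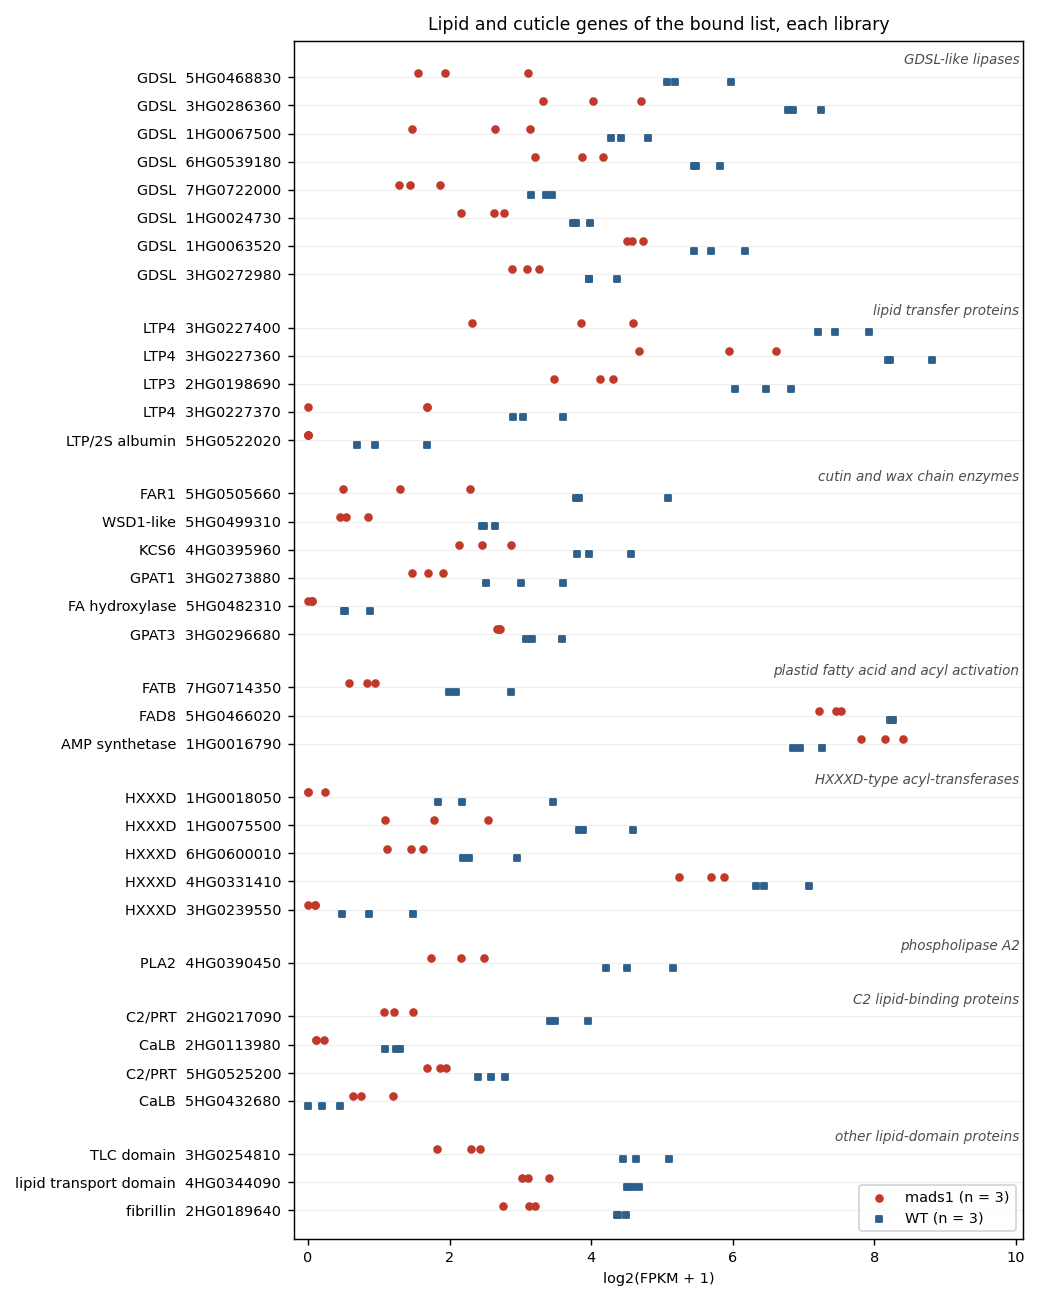
Log2(FPKM + 1) of the 35 members in each library, in rows by enzyme class, with 3 *mads1* libraries as circles and 3 WT libraries as squares. The circles lie left of the squares in 33 rows, and right of them for the AMP-dependent synthetase and 1 calcium-dependent lipid-binding gene.

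**Figure D2:**
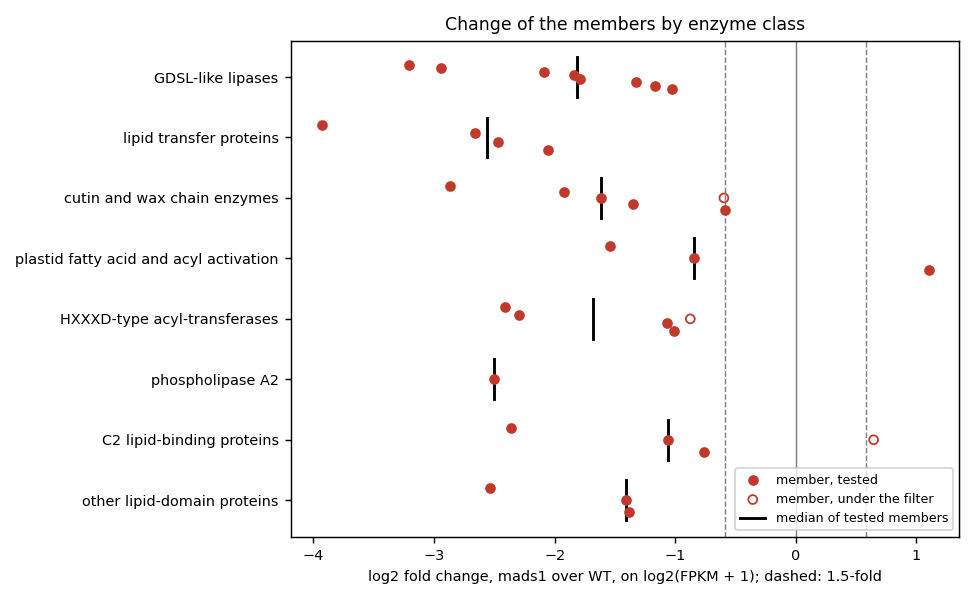
Log2 fold change of each member (*mads1* over WT) by class, with filled points for the 31 tested members, open points for 3 of the 4 under the filter on low values (the lipid transfer gene listed at 0 in *mads1* is left out) and bars for the median of the tested members. On the log2(FPKM + 1) scale the lipid transfer proteins lie farthest left among classes with more than 1 member, with a median of -2.56. As a percentage of WT, the median of the tested C2 lipid-binding proteins was lower, at 12.2% against 17.4%.

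Summed over members, the lipid and cuticle genes came to 720, 880 and 542 FPKM in the *mads1* libraries and to 2080.5, 1463 and 1542 FPKM in the WT libraries. One gene, the AMP-dependent synthetase, contributed 283, 338 and 225 FPKM to the *mads1* sums. Without it the sums averaged 432 ± 112 FPKM in *mads1* and 1565 ± 316 FPKM in WT (SD, n = 3 each), so the *mads1* mean was 27.6% of the WT mean.

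**Figure D3:**
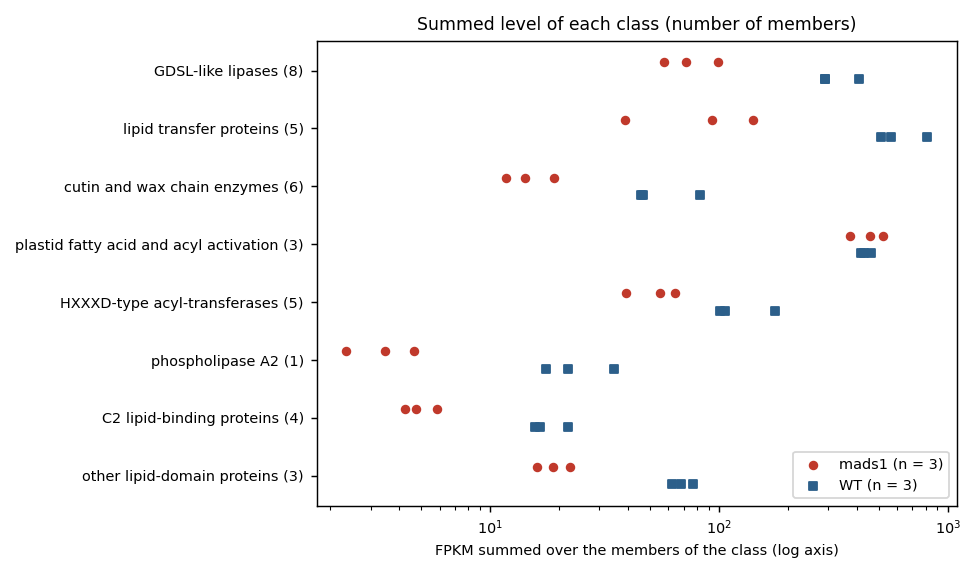
FPKM summed over the members of each class in each library, on a log axis, with *mads1* libraries as circles and WT libraries as squares. The 2 genotypes overlap only in the class of plastid fatty acid and acyl activation genes, where *mads1* libraries summed to 373 to 524 FPKM and WT libraries to 416 to 461 FPKM.

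Lipid transfer proteins are small secreted cysteine-rich proteins that bind acyl chains in a hydrophobic cavity and are abundant in the epidermis of many plants. Of the 5 members of this class 4 were tested, and all 4 were lower, with *mads1* means of 7.25% to 17.8% of WT. The *lipid transfer protein 4* gene HORVU.MOREX.r3.3HG0227360 had the highest WT mean of all 35 members. Its level was 61, 96.7 and 24.5 FPKM in *mads1*, against 449, 291 and 296 FPKM in WT, a log2 fold change of -2.66. Each WT library held more than 2 times the level of any *mads1* library, but the *mads1* libraries themselves differed widely. Its near neighbour HORVU.MOREX.r3.3HG0227400, also annotated as lipid transfer protein 4, had the lowest fold change of the tested members on the log2(FPKM + 1) scale, with 13.4, 23.2 and 4.0 FPKM in *mads1* against 242, 146 and 173 FPKM in WT. Its log2 fold change of -3.93 was between -4.44 and -3.30 when 1 library was left out. The third copy, HORVU.MOREX.r3.3HG0227370, was much lower in both genotypes, at 2.22, 2.22 and 0 FPKM in *mads1* and 11.2, 6.48 and 7.22 FPKM in WT.

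These 3 genes stand close together on chromosome 3H by the order of their identifiers, and reads shared between near-identical copies could have been split among them by the counting, so their separate levels are uncertain. *Lipid transfer protein 3* (HORVU.MOREX.r3.2HG0198690) on 2H was at 16.5, 18.7 and 10.2 FPKM in *mads1* against 112, 64.4 and 87.6 FPKM in WT. Here the spread within a genotype was small beside the difference, and the log2 fold change was -2.47 (standard error 0.25). The gene annotated as a bifunctional inhibitor/lipid-transfer protein/seed storage 2S albumin (HORVU.MOREX.r3.5HG0522020) was listed at 0 in each *mads1* library and at 2.21, 0.92 and 0.61 FPKM in WT. It was under the filter, and no fold is given for it.

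GDSL-like lipases/acylhydrolases are a large plant family of secreted esterases named for a motif around the active-site serine. In tomato, a member of the family joins cutin monomers outside the cell. All 8 genes of this class were lower in *mads1*, with log2 fold changes from -3.21 to -1.02. HORVU.MOREX.r3.3HG0286360 had the highest WT level of the class and was at 15.3, 25.1 and 8.96 FPKM in *mads1* against 150, 114 and 109 FPKM in WT. HORVU.MOREX.r3.5HG0468830 fell the most, to 2.82, 7.65 and 1.95 FPKM in *mads1* against 62.0, 35.5 and 32.6 FPKM in WT. These were the only GDSL genes under 15% of the WT mean, at 13.2% and 9.55%.

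HORVU.MOREX.r3.1HG0067500 and HORVU.MOREX.r3.6HG0539180 were intermediate on the log2(FPKM + 1) scale, at 22.5% and 27.3% of the WT mean. The first was at 5.23, 7.82 and 1.78 FPKM in *mads1* and 27.0, 18.5 and 20.5 FPKM in WT, and the second at 13.6, 16.9 and 8.28 FPKM in *mads1* and 55.7, 42.7 and 43.8 FPKM in WT. The 4 other genes of the class had *mads1* means of 21.4% to 45.9% of WT. The lowest of these, HORVU.MOREX.r3.7HG0722000, thus fell further than both as a percentage of WT. Among the 4, HORVU.MOREX.r3.1HG0063520 (23.4 ± 1.98 FPKM in *mads1* and 55.0 ± 14.8 FPKM in WT, SD, n = 3 each) and HORVU.MOREX.r3.3HG0272980 (7.51 ± 1.10 FPKM in *mads1* and 16.4 ± 2.90 FPKM in WT, SD, n = 3 each) changed the least. The class as a whole summed to 76.2 ± 21.2 FPKM in *mads1* and 331 ± 69.1 FPKM in WT (SD, n = 3 each).

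In the class grouped here as cutin and wax chain enzymes, 5 of the 6 members were tested, and all 5 were lower in *mads1*. The grouping rests on family annotation, and a role of each gene in cutin or wax was not tested. *3-ketoacyl-CoA synthase 6* (HORVU.MOREX.r3.4HG0395960) carries the name of the Arabidopsis condensing enzyme that lengthens very-long-chain fatty acids for wax. It was at 4.51, 6.32 and 3.41 FPKM in *mads1* against 22.5, 14.6 and 13.0 FPKM in WT, a log2 fold change of -1.62 (standard error 0.24). *Fatty acid reductase 1* (HORVU.MOREX.r3.5HG0505660), of the family that turns acyl chains into fatty alcohols, fell further, to 1.47, 3.90 and 0.41 FPKM in *mads1* against 33.0, 13.3 and 12.8 FPKM in WT. Its WT value in replicate 1 stood far above those of the other libraries, and its log2 fold change of -2.87 lay between -3.34 and -2.44 when 1 library was left out.

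The WSD1-like O-acyltransferase (HORVU.MOREX.r3.5HG0499310) belongs to the family that joins fatty alcohols and acyl chains into wax esters in Arabidopsis. It was low in *mads1*, at 0.37, 0.45 and 0.80 FPKM, and at 4.63, 4.52 and 5.22 FPKM in WT, with the WT libraries close together. The Fatty acid hydroxylase superfamily gene (HORVU.MOREX.r3.5HG0482310), of a superfamily that holds both wax alkane and sterol enzymes, did not reach 1 FPKM in any library. Its values were 0.04, 0.04 and 0 FPKM in *mads1* and 0.42, 0.44 and 0.83 FPKM in WT.

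Glycerol-3-phosphate acyltransferases transfer an acyl chain to glycerol 3-phosphate, and some Arabidopsis members of the family make precursors of cutin and suberin. *Glycerol-3-phosphate acyltransferase 1* (HORVU.MOREX.r3.3HG0273880) was at 2.23, 2.76 and 1.78 FPKM in *mads1* against 11.2, 4.73 and 7.06 FPKM in WT. *Glycerol-3-phosphate acyltransferase 3* (HORVU.MOREX.r3.3HG0296680) was at 5.53, 5.52 and 5.36 FPKM in *mads1* against 11.1, 8.01 and 7.44 FPKM in WT. This was the member nearest to the fold change limit of 0.58 on the log2 scale, at -0.59, and it went under that limit without WT replicate 1 (-0.43) and without *mads1* replicate 3 (-0.57). It also did so with the libraries scaled to the same total (-0.53) or quantile-normalized (-0.48). *Acyl-CoA oxidase 2*, outside the rule only because the study lists it with the hormone genes, was at 1.92, 2.63 and 2.83 FPKM in *mads1* and 6.30, 4.71 and 3.73 FPKM in WT, a log2 fold change of -0.76.

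The plastid enzymes and the acyl-activating enzyme did not move as one. The gene annotated as fatty acyl-ACP thioesterases B (HORVU.MOREX.r3.7HG0714350), an enzyme that releases saturated acyl chains from their carrier in the plastid, was at 0.78, 0.92 and 0.49 FPKM in *mads1* against 6.33, 3.28 and 2.99 FPKM in WT. *Fatty acid desaturase 8* (HORVU.MOREX.r3.5HG0466020), in Arabidopsis a plastid desaturase of membrane lipids, was among the most abundant members, at 175, 184 and 148 FPKM in *mads1* against 303, 298 and 306 FPKM in WT. Its *mads1* mean was still 55.9% of WT, one of the smaller reductions on the list. The AMP-dependent synthetase and ligase family gene (HORVU.MOREX.r3.1HG0016790), of a family that activates fatty and other carboxylic acids, was the only tested member that was higher in *mads1*.

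This gene was at 283, 338 and 225 FPKM in the *mads1* libraries against 152, 115 and 122 FPKM in the WT libraries. Its log2 fold change was 1.10 (standard error 0.16), between 0.96 and 1.26 when 1 library was left out. In *mads1* it was the most abundant of the 35 members, while in WT 3 members stood above it.

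HXXXD-type acyl-transferases move acyl groups from coenzyme A onto alcohols and amines, many of them phenolic. Of the 5 members 4 were tested, and all 4 were lower in *mads1*. HORVU.MOREX.r3.1HG0018050 was listed at 0, 0.18 and 0 FPKM in *mads1* against 10.03, 2.57 and 3.54 FPKM in WT, with the WT level resting strongly on replicate 1. Its *mads1* mean was 1.12% of WT, the lowest percentage among the tested members. HORVU.MOREX.r3.1HG0075500 was at 2.42, 4.83 and 1.13 FPKM in *mads1* against 23.1, 13.8 and 13.2 FPKM in WT. The most abundant of the class, HORVU.MOREX.r3.4HG0331410, was at 51.0, 57.5 and 36.7 FPKM in *mads1* against 134, 79.8 and 85.8 FPKM in WT, and here the highest *mads1* and lowest WT values were only 1.39-fold apart. HORVU.MOREX.r3.6HG0600010 was at 2.10, 1.75 and 1.16 FPKM in *mads1* against 6.73, 3.83 and 3.56 FPKM in WT. HORVU.MOREX.r3.3HG0239550 was under the filter, at 0 to 0.07 FPKM in *mads1* and 0.39 to 1.81 FPKM in WT.

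The Phospholipase A2 family gene (HORVU.MOREX.r3.4HG0390450), whose family frees fatty acids from phospholipids, was at 3.46, 4.62 and 2.33 FPKM in *mads1* against 34.7, 17.6 and 21.8 FPKM in WT. Of the 4 genes annotated with a calcium- or C2-type lipid-binding domain, 3 were tested and lower. HORVU.MOREX.r3.2HG0217090 was at 1.10, 1.79 and 1.33 FPKM in *mads1* against 14.6, 9.65 and 10.3 FPKM in WT, and HORVU.MOREX.r3.2HG0113980 at 0.08, 0.08 and 0.17 FPKM in *mads1* against 1.47, 1.37 and 1.12 FPKM in WT. HORVU.MOREX.r3.5HG0525200 had a log2 fold change of -0.76. The other, HORVU.MOREX.r3.5HG0432680, was under the filter, with each *mads1* library above each WT library, at 0.68, 1.31 and 0.55 FPKM in *mads1* and 0, 0.37 and 0.15 FPKM in WT. For this gene and HORVU.MOREX.r3.5HG0525200 the older identifier paired with it in the study's list belongs to another chromosome, as for 34 of the 605 pairs, so their annotation is less certain.

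The 3 remaining members were all lower. The gene with a TRAM, LAG1 and CLN8 domain (HORVU.MOREX.r3.3HG0254810), a domain shared with ceramide synthases, was at 3.96, 4.38 and 2.55 FPKM in *mads1* against 33.2, 23.8 and 20.8 FPKM in WT. The fibrillin gene (HORVU.MOREX.r3.2HG0189640), whose family coats plastid lipid droplets, and the Polyketide cyclase/dehydrase and lipid transport gene (HORVU.MOREX.r3.4HG0344090) were at 35.6% and 35.2% of WT. In both, the 3 libraries of a genotype lay close together, and their standard errors of 0.13 and 0.12 were among the smaller ones on the list.

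A second word list, meant for lipid, cuticle or epidermis genes, matched 17 bound genes besides the members and *acyl-CoA oxidase 2*. Of these 16 were tested, 15 lower and 1 higher. Among the 510 tested bound genes that are not members, 420 were lower and 63 higher, and of all genes tested 14.5% were lower. Some annotations on the word list, such as alpha/beta-Hydrolases superfamily and ABC-2 type transporter family, do not state a lipid, cuticle or epidermis role. The 17 genes too were chosen by the study for their change. Protodermal factor 1 (HORVU.MOREX.r3.7HG0718530), an epidermis gene in Arabidopsis, was at 2.20, 3.99 and 1.17 FPKM in *mads1* against 65.1, 36.3 and 32.6 FPKM in WT. White-brown complex homolog protein 11 (HORVU.MOREX.r3.6HG0567010), in Arabidopsis an exporter of cutin and wax lipids, was at 1.48, 1.85 and 1.09 FPKM in *mads1* against 5.96, 5.57 and 4.99 FPKM in WT. The Glucose-methanol-choline oxidoreductase (HORVU.MOREX.r3.3HG0254010) had a log2 fold change of -1.19. The higher gene was the PLAT/LH2 domain lipoxygenase (HORVU.MOREX.r3.4HG0404940), at 0.65 on the log2 scale.

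Bound genes picked by word lists for the secondary wall and for green tissue moved in the same direction. Their annotations name no cell type. The secondary wall list held 12 genes (laccases, fasciclin-like arabinogalactan proteins, cellulose synthases and MYB61 and MYB83). Of these 11 were tested, and all 11 were lower in *mads1*, with a median of 6.26% of WT. Among the 510 tested bound genes that are not members, 420 were lower, and the median of the 510 was 40.6% of WT. Of all genes tested, 14.5% were lower. The 12 secondary wall genes had summed levels of 174 to 227 FPKM in *mads1* and 488 to 813 FPKM in WT. Most of the *mads1* sum, 197 FPKM on average, came from HORVU.MOREX.r3.2HG0111610 (90.8 FPKM, 65.6% of WT) and HORVU.MOREX.r3.5HG0517170 (88.9 FPKM, 59.4% of WT). The pair for green tissue, carbonic anhydrase 2 and phosphoribulokinase, summed to 19.3 to 41.5 FPKM in *mads1* and 98.3 to 139 FPKM in WT. Fasciclin-like arabinogalactan 2, cellulose synthase-like B3 and 1 of the 2 laccase 17 genes were listed at 0 in at least 1 *mads1* library and in no WT library. These lists were taken from the bound genes too, so their direction is not independent of the choice. Their part in the lipid gene values was not tested. In such bulk samples fewer cells of a type and less RNA per cell cannot be told apart.

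Libraries of one genotype also differed in a shared way. The members were chosen from calls on the same libraries, so this pattern is not independent of the choice. Among the 31 tested members, *mads1* replicate 2 was the highest *mads1* library for 24 and *mads1* replicate 3 the lowest for 24, and WT replicate 1 was the highest WT library for 28. Over all genes tested these held for 30.0%, 32.8% and 34.5%. For the 510 other bound genes the shares were 50.8%, 50.6% and 77.1%, and for the 2157 lower genes outside the bound list 46.0%, 52.4% and 72.4%. The median member deviated by 0.25 in *mads1* replicate 2, by -0.31 in *mads1* replicate 3 and by 0.37 in WT replicate 1 from the mean of its genotype on the log2 scale. These counts are a description, since genes of one library are not independent. Without *mads1* replicate 3 the median log2 fold change of the members was -1.496, without WT replicate 1 it was -1.72, and 29 were lower in either case.

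**Figure D4:**
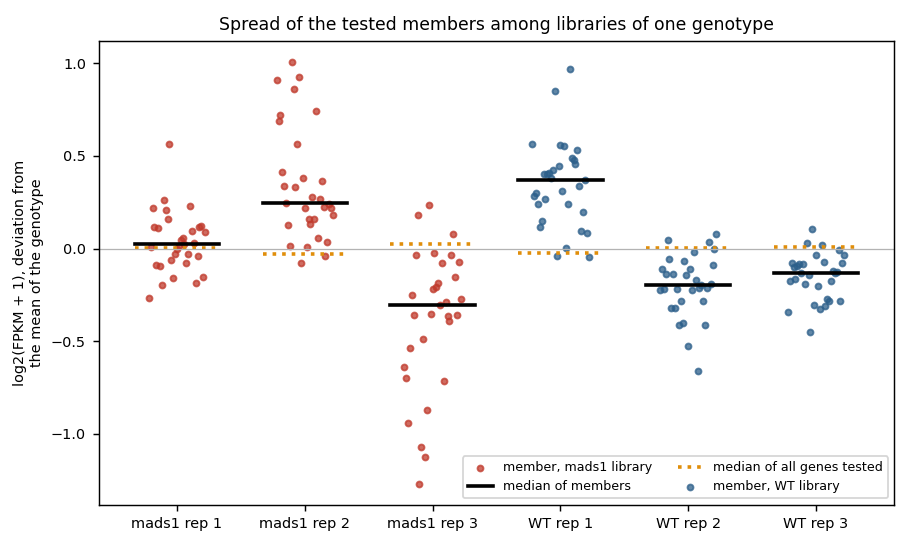
Deviation of each of the 31 tested members from the mean of its genotype on log2(FPKM + 1), by library, with solid bars for the median member and dotted bars for the median of all 17996 genes tested. The solid bars of *mads1* replicate 2 (0.25) and WT replicate 1 (0.37) lie above 0 and that of *mads1* replicate 3 (-0.31) below, while the dotted bars stay near 0.

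The genes next to the members were not chosen by the rule and could be tested. The nearest listed gene on each side that is not in the bound list was taken, 67 genes in all, of which 44 had enough FPKM. A gene both bound and changed could not be among them. Past the threshold, 12 were lower and 0 were higher in *mads1* (limma), so 27.3% were lower where 14.5% of all genes tested were. Among the lower ones, HORVU.MOREX.r3.2HG0113990 and HORVU.MOREX.r3.7HG0722010 passed the filter on low values only through WT. The first was at 0.16, 0.24 and 0.2 FPKM in *mads1* against 1.88, 1.55 and 1.16 FPKM in WT. The second was at 0.55, 0.52 and 0.66 FPKM in *mads1* against 1.59, 1.32 and 1.31 FPKM in WT. At an unadjusted p below 0.05, 7 of the 44 were higher without the limit on fold change and 1 with it. The median log2 fold change of the 44 was -0.11. The 2 neighbours with the lowest fold change on the log2(FPKM + 1) scale stand beside lipid transfer genes, while as a percentage of WT HORVU.MOREX.r3.3HG0239600 (13.0%) and HORVU.MOREX.r3.2HG0113990 (13.1%) were lower still. The annotation of the neighbours was not analysed here.

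HORVU.MOREX.r3.3HG0227390, between copies of *lipid transfer protein 4*, was at 27.3, 50.6 and 10.2 FPKM in *mads1* against 283, 180 and 184 FPKM in WT. The log2 fold change of -3.06 (standard error 0.48) had an adjusted p of 0.00142 in limma. If it is a further copy, the limit on shared reads holds for it too. HORVU.MOREX.r3.2HG0198700, next to *lipid transfer protein 3*, was more abundant than any member in WT, at 92.3, 143 and 40.9 FPKM in *mads1* against 680, 403 and 457 FPKM in WT (log2 fold change -2.60, adjusted p = 0.00137 from limma). HORVU.MOREX.r3.3HG0239600 and HORVU.MOREX.r3.6HG0600000, each beside an HXXXD-type acyl-transferase, had log2 fold changes of -2.24 and -2.20 (adjusted p = 0.000204 and 0.00386 from limma). Of the 44 tested neighbours, 32 did not pass the threshold.

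**Figure D5:**
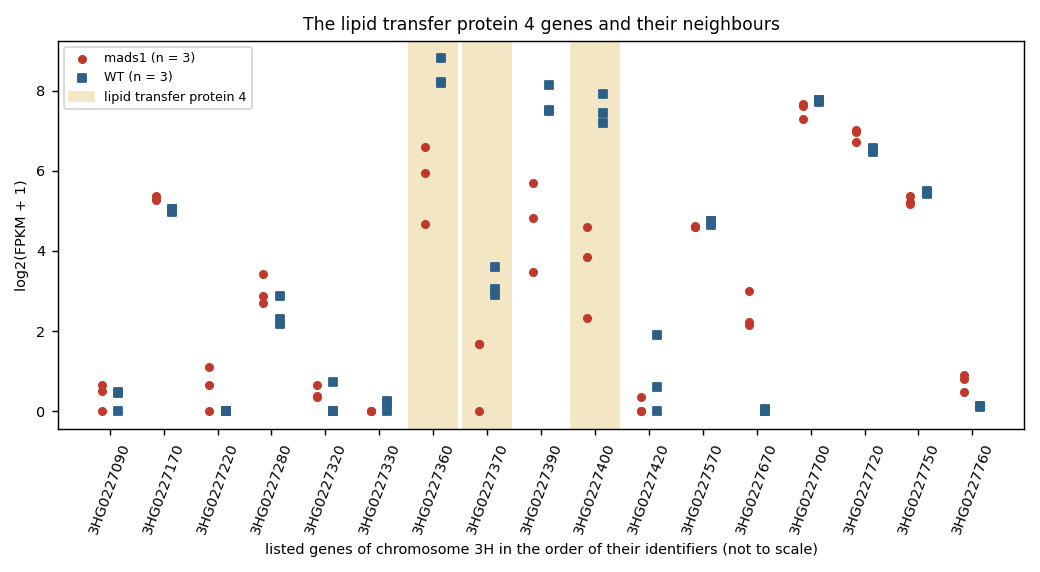
Log2(FPKM + 1) of the *lipid transfer protein 4* genes (shaded) and of listed genes around them on chromosome 3H in the order of their identifiers, with *mads1* libraries as circles and WT libraries as squares. The 3 shaded genes and HORVU.MOREX.r3.3HG0227390 between them are lower in every *mads1* library than in any WT library, while most genes around them were not called, with HORVU.MOREX.r3.3HG0227670 higher in *mads1*.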

How the data were processed

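RNA-seq was available for 3 *mads1* and 3 WT samples, grouped and numbered by their labels, each a pool of plants. Per the labels and the paper's methods, the authors trimmed reads with Trimmomatic, aligned them to a barley reference and computed gene-level FPKM with RSEM 1.3.3, which they deposited. The aligner and genome version are not stated in the sources used here, but the deposited gene identifiers carry the annotation prefix HORVU.MOREX.r3. Depth is unknown, so no interval or smallest detectable level was computed, and the totals lie so close together that the values may have been scaled to a fixed total.

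Log2(FPKM + 1) was tested with limma 3.58.1 in R 4.3.3 (trend, no block) for genes reaching 1 FPKM in 3 or more libraries. Calls needed a Benjamini-Hochberg adjusted p below 0.05 over all genes and at least 1.5-fold, the study's limits for its count test. The fit was tested on simulated data. Members, annotations and word lists come from the study's supplementary lists and were chosen with earlier results of these data known. All members could be named. Values per library were given for every cutin and wax, lipid transfer and plastid gene, for the most changed members of other classes and for those against their class. Neighbours were taken by identifier order, and those past the threshold with the largest changes were named. Alternatives were other pseudocounts, filters, scalings and variance models, a replicate block, no fold limit and each library left out. Identical values above 0 made up at most 2.4% of any pair of libraries. The p-values measure the spread between these pools.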

Additional observations from a re-analysis of the deposited data

How the results depend on the processing

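Of 16 alternatives, 11 could change a member's fold change. Under these no tested member changed sign, and 15 of 341 values moved by more than the spread between replicates, 9 of them among the 31 at a pseudocount of 0.1, 4 at a pseudocount of 0.5 and 2 after quantile normalization. With a pseudocount of 0.1 the members' median was -2.33 in place of -1.79, and the filter at 5 FPKM turned that of the plastid and acyl activation class to 0.13, since only 2 of its 3 genes were left. Without a filter, 2 members were higher. Over all genes, 4011 were lower and 3768 higher on the adjusted p alone, against 2607 and 1187 with the limit on fold change, and 769 were higher with the 5 FPKM filter. Members lower numbered 30, and 23 to 33 under the alternatives that kept every library, with 23 at the 5 FPKM filter, where fewer were tested. Lower neighbours numbered 12, and 8 to 15 under these, with 8 at the 5 FPKM filter, 10 after quantile normalization and 15 without the fold limit. Higher neighbours numbered 0, but 2 with libraries scaled to the same total, 1 after quantile normalization, 1 with the replicate block and 3 without the fold limit. The median of all genes tested was 0.05, and 0.11 under both scalings named. With 1 library left out, 2380 to 2698 genes were lower and 1022 to 1460 higher, members lower were 29 to 30 and higher 1, neighbours lower were 10 to 12 and higher 0 to 1, and the members' median was -1.88 to -1.496. Correlations of deviations between *mads1* and WT libraries were -0.07, -0.28 and 0.20 for the same replicate number. For different numbers they ran from -0.34 (*mads1* replicate 3 with WT replicate 1) to 0.40 (*mads1* replicate 2 with WT replicate 1). These values gave no sign of pairing by number but cannot show whether samples were collected in pairs. With the replicate block 2610 genes were lower and 1171 higher, with 30 members lower and 1 higher. Lipid genes outside the bound list were not run, since no names could be joined. Without read counts, the precision of members under 1 FPKM is unknown.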
